A study of Caenorhabditis elegans with 24 samples.

Results

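The loss of the insulin/IGF-1 receptor DAF-2 was examined in animals that lack the FOXO transcription factor DAF-16. All cells libraries of the double mutant, *daf-16(lf); daf-2(lf)*, were compared with all cells libraries of the *daf-16(lf)* single mutant, 3 against 2, or 5 of the 24 libraries in the series. The members were chosen by their labels alone. Both strains carry the *daf-16(mu86)* deletion and a transgene that labels body wall muscle with GFP, whose promoter the sources used here do not state. The double mutant also carries *daf-2(e1370)*, a temperature-sensitive receptor allele. Both were collected as synchronized young adult hermaphrodites, dissociated and sorted by FACS, which collects single cells by their fluorescence. “All cells” passed the gate for viable cells (propidium iodide negative) with no gate on GFP, and “muscle cells” were in addition GFP positive. The double mutant grew at 15 °C up to L4, the last larval stage, and spent 8 h at the restrictive temperature, at which *daf-16(lf)* had been kept throughout. The *daf-2* genotype, the rearing temperature and the cells that survived dissociation therefore changed together, and their parts in a difference cannot be told apart. In bulk libraries, fewer cells of a type and less RNA per cell cannot be told apart either. The labels name 2 library kits, a stranded mRNA kit for single-end reads and a full-length cDNA kit for paired-end reads, and do not assign either kit to a library. A few genes, most of them under 300 bases, split completely by the *daf-2* state over the whole series, as given with the largest differences. Whether the kit differed between the *daf-2* states is not stated. Such a difference cannot be told apart from the genotype, and its part in the short, mitochondrial, ribosomal and transcript values was not tested.

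Insulin/IGF-1 signaling (IIS) in *C. elegans* runs from insulin-like peptides through DAF-2, the PI3-kinase AGE-1 and the kinases PDK-1, AKT-1 and AKT-2, which phosphorylate DAF-16 and hold it in the cytosol. When DAF-2 is inactive, DAF-16 enters the nucleus and changes the transcription of genes of stress defence, metabolism and immunity. With DAF-16 deleted, that branch is missing, and other factors downstream of DAF-2, such as SKN-1, HSF-1 and PQM-1, remain. The comparison asks what differs in the cells of the whole animal between the *daf-2* states when DAF-16 is absent from both.

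Values are TPM, a length-corrected share of the library, summed over the transcripts of each of 21979 genes. A difference is double mutant minus *daf-16(lf)* in mean log2(TPM + 1), on which folds of scarce transcripts come out too small. The *daf-16(lf)* libraries held 17412 and 17674 genes above 0, and the double mutant libraries 18222, 18719 and 18820. TPM carries no read number, so counting error is unknown. The 10 most abundant genes took 30.3% and 28.6% of the *daf-16(lf)* libraries and 19.3% to 20.2% of the double mutant ones. Replicates of a group differed by a median of 0.26 on the log2 scale in *daf-16(lf)* and by 0.30 to 0.37 in the double mutant. Nothing in the labels says that replicates of all cells came from separate cultures, so p-values measure spread between libraries. In the main fit that spread was pooled over the 8 groups of all 24 libraries and was not that of these 5 alone. Of 14 *daf-16* transcripts, 9 were listed at 0 in all 5 libraries, and their sum was 25.02 to 37.3 TPM in the *daf-2(lf)* all cells libraries, which carry *daf-16*. These 9 were picked on the 5 libraries themselves. The libraries labelled wild-type all cells go against their label at *daf-16*, by values not given here, and entered only the shared estimate of spread.

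Most genes tested were higher in the double mutant. Of 14714 genes that reached 1 TPM in 3 or more libraries, 8318 (56.5%) passed an adjusted p under 0.05 (limma with Benjamini-Hochberg adjustment over all genes tested), 6656 higher (45.2%) and 1662 lower (11.3%). The median of all genes was itself 0.86 above 0, and it moved to 0.11 with quantile normalization and 0.15 with median-of-ratios scaling. The latter took its factors from genes above 0 in all 24 libraries. Replicate 1 labelled wild-type all cells had 9198 genes above 0, which limits that set, and the effect of this limit was not tested. Higher genes were 80.0% of the calls on TPM as deposited, 55.1% after quantile normalization (3626 higher and 2953 lower) and 53.2% after median-of-ratios scaling (3026 higher and 2667 lower). A gene or list is thus read against 0.86, and a list's counts against the 45.2% higher and 11.3% lower of all genes. These shares hold for TPM as deposited in all cells only. Counts after median-of-ratios scaling are read against its own 3026 higher and 2667 lower of 14714 genes. Counts in muscle cells are read against 23.5% higher and 8.62% lower. Scaling also brought calls, and of the genes named 12 passed after median-of-ratios scaling and 10 after quantile normalization that had not passed on TPM as deposited. Where the 5 libraries were fitted alone, 16 did, so a gene that did not pass may owe this to the pooled spread. Without regard to a test, the 5 libraries did not overlap at 78% of genes, 60.3% with the double mutant higher and 17.8% with it lower.

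The same contrast in muscle cells, 3 double mutant against 4 *daf-16(lf)* libraries, called 4725 genes (32.1%), 3456 higher (23.5%) and 1269 lower (8.62%), with a median of 0.33 over all genes. It shares no library with the all cells contrast. The authors describe all cells as a part of the dissociated sample that was sorted without the GFP gate, so libraries of both gates can share a dissociation. The labels do not say which libraries do. The test of the difference between the cell types treats all libraries as independent. In all cells, 2577 of the 6656 higher genes were also higher in muscle cells, 38.7% of the all cells list and 74.6% of the muscle list. Of the 1662 lower genes, 850 were also lower in muscle cells, 51.1% of the all cells list and 67.0% of the muscle list. The contrast itself differed between the cell types at 2686 genes (18.3%), with 2016 more positive in all cells (13.7%) and 670 more negative (4.55%).

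**Figure D1:**
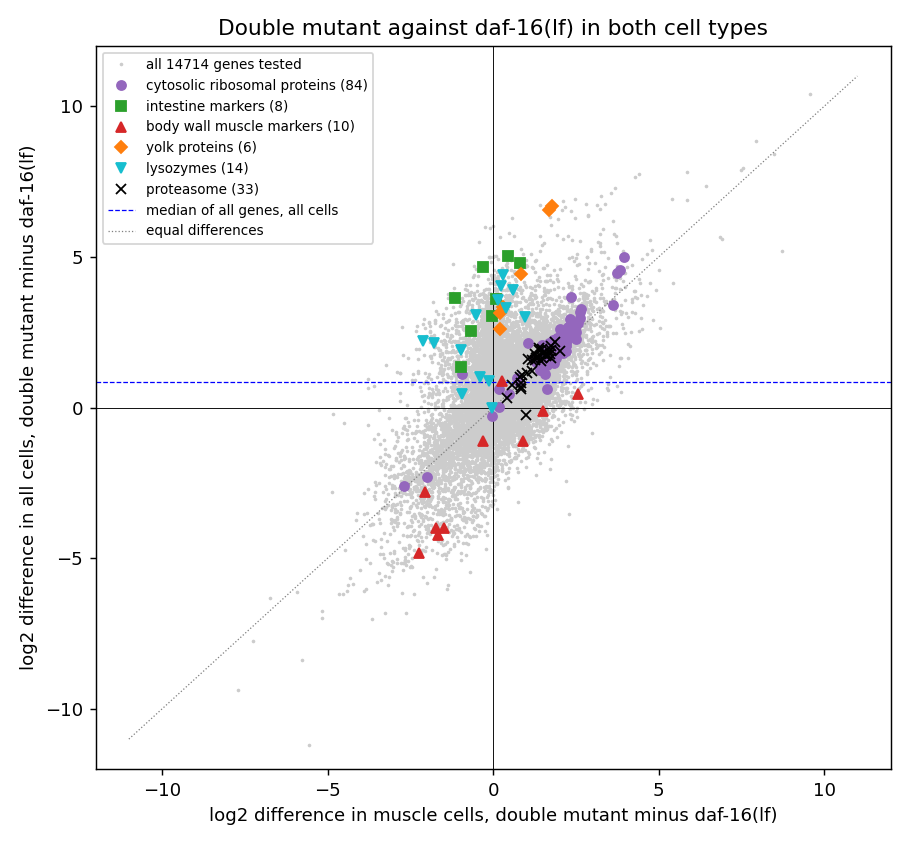
Each point is a gene, with its log2 difference in muscle cells on the x axis and in all cells on the y axis (double mutant minus *daf-16(lf)*, in log2(TPM + 1)), and 6 gene lists are coloured. Ribosomal protein and proteasome genes lie near the line of equal differences, intestine markers, yolk and lysozyme genes lie above it, and the most abundant body wall muscle markers lie below it, at all cells differences from -3.99 to -4.82.

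Genes of different use in muscle differed in their share of calls. By the *daf-2(lf)* libraries, which enter neither side of the contrast, 919 genes were higher in muscle cells than in all cells, 8177 were lower and 5618 were neither. Of the 919 muscle-high genes, 398 (43.3%) were lower in double mutant all cells and 96 (10.4%) higher, with a median of -0.65. Of the 8177 muscle-low genes, 4452 (54.4%) were higher and 468 (5.72%) lower, with a median of 1.16. The muscle-high genes held 43.0% of all TPM in *daf-16(lf)* all cells and 6.45% in double mutant all cells. With those genes left out and TPM rescaled, a setting chosen after seeing the data, 5150 genes were called, 3367 higher and 1783 lower.

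Marker lists of cell types put a size on this. The level of a list is the mean log2(TPM + 1) of its genes. The 10 body wall muscle markers were at 10.04 in both *daf-16(lf)* libraries and at 8.08, 7.98 and 7.82 in the double mutant. The *daf-16(lf)* all cells libraries thus stood close to the *daf-16(lf)* muscle cells, which ranged from 10.10 to 10.62. The 8 intestine markers were at 2.90 and 2.60 in *daf-16(lf)* and at 6.20, 6.47 and 6.33 in the double mutant. In *daf-16(lf)* all cells, *elt-2*, the GATA factor that defines the intestine, was under 1 TPM in both libraries, as were *col-19* of the hypodermis list and *rgef-1* and *unc-31* of the neuron list. The 6 hypodermis markers were higher by 2.31, the 12 neuron markers by 1.66, the 8 germ line markers by 1.65 and the 9 oocyte and eggshell markers by 1.93, with no overlap between the groups. The 3 glia markers were lower by 1.56, also without overlap. Sperm, somatic gonad, coelomocyte and pharyngeal muscle markers overlapped between the groups. By the exact permutation test (two-sided), the 7 lists without overlap had p = 0.1, the smallest that 10 regroupings of 3 against 2 libraries can give.

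**Figure D2:**
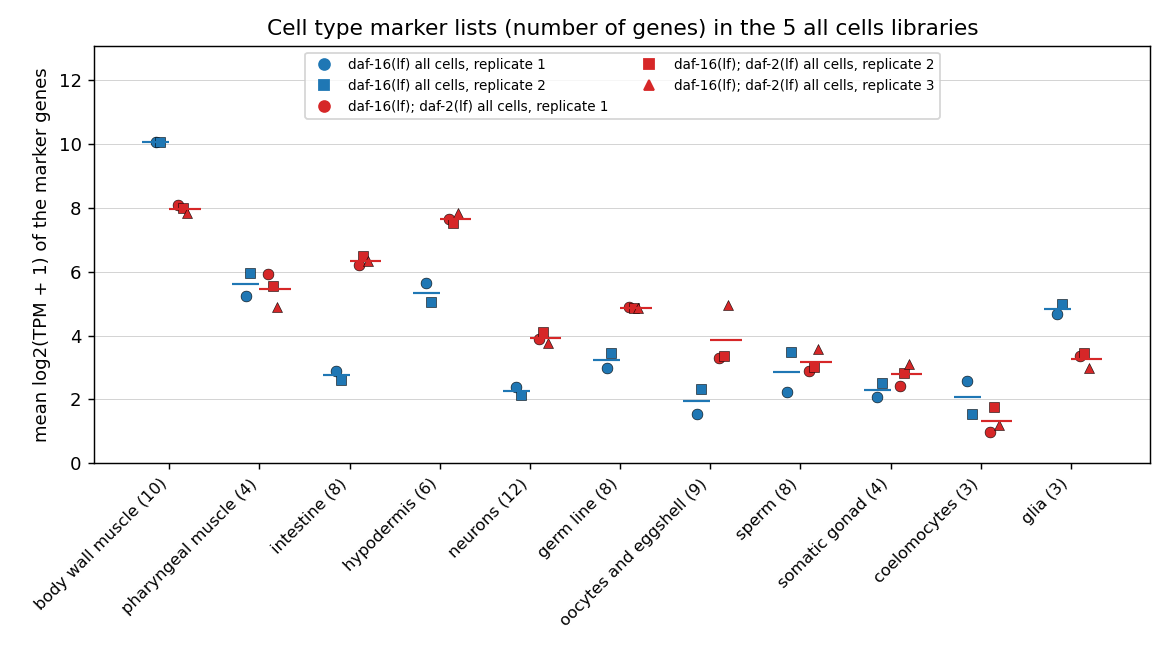
Points are the mean log2(TPM + 1) of 11 marker lists in each of the 5 all cells libraries, with the number of genes in parentheses, and bars are group means. Body wall muscle falls from 10.04 in both *daf-16(lf)* libraries to about 8 in the double mutant, and intestine rises from below 3 to above 6.

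Abundant transcripts of body wall muscle fell. Of the 10 markers, 6 fell and none rose, with a median of -1.96, and 8 fell after median-of-ratios scaling (median -2.88). *unc-15*, which encodes paramyosin, was at 14044 and 15621 TPM in *daf-16(lf)* and at 587, 507 and 484 TPM in the double mutant, a log2 difference of -4.82 ± 0.49 (SE; limma, adjusted p = 1.3e-07). The tropomyosin gene *lev-11* fell by 3.99, the essential myosin light chain gene *mlc-3* by 3.99 and the myosin heavy chain gene *unc-54* by 4.23. *act-4*, an actin gene outside the list whose near-identical copies can share its reads, was at 48131 and 47842 TPM in *daf-16(lf)* and at 1048, 1113 and 1032 TPM in the double mutant. The 10 markers together held 6.79% and 6.76% of TPM in *daf-16(lf)* and 0.479% to 0.560% in the double mutant. The 4 markers that did not fall did not pass on TPM as deposited. The troponin I gene *unc-27* was at 996 and 732 TPM against 831, 749 and 794 TPM, and the groups overlapped, while after median-of-ratios scaling it was at -1.06 and passed (limma, adjusted p = 0.037). *unc-60*, which encodes cofilin, was at 166 and 125 TPM against 209, 205 and 185 TPM, and *unc-22*, the gene of the giant protein twitchin, at 9.68 and 12.4 against 26.2, 23.3 and 15.8 TPM. The difference of *unc-60* was 0.47, and -0.47 after median-of-ratios scaling.

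In muscle cells the same markers divided, with 5 lower and 3 higher, and the contrast was more negative in all cells at 7 of 10. It was lower in all cells by 2.59 on the log2 scale for *unc-15*, by 2.51 for *mlc-3* and by 2.10 for *unc-60* (limma interaction, adjusted p = 0.0063, 3.1e-06 and 0.00014). The fall of *unc-54*, *unc-15*, *lev-11* and *mlc-3* thus occurred in both cell types and was deeper in all cells. With the 100 most abundant genes left out, 5 of the 10 markers were still tested and 2 of them fell, and with the muscle-high genes left out, 3 were tested and 1 fell. Of the 4 pharyngeal muscle markers, the troponin C gene *tnc-2* fell by 1.58 (limma, adjusted p = 0.010), and with *daf-16(lf)* replicate 2 left out it did not pass (adjusted p = 0.092). The pharyngeal myosin genes *myo-1* and *myo-2* were at -0.06 and -0.08 and the troponin T gene *tnt-4* at 1.14, none past the test. The median of these 4 was -0.07, and its sign changed with the scaling (highest 0.13).

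Intestinal genes rose in all cells and not in muscle cells. Of the 8 markers, 7 rose, with a median of 3.62 (7 rose after median-of-ratios scaling too), while 0 rose and 1 fell in muscle cells. *ifb-2*, which encodes an intermediate filament of the intestine, was at 5.54 and 4.97 TPM in *daf-16(lf)* and at 219, 188 and 210 TPM in the double mutant, a log2 difference of 5.04 ± 0.58 (SE; limma, adjusted p = 6.5e-07). The aspartic protease gene *asp-1* rose by 4.79, the microvillus actin gene *act-5* by 4.66 and the peptide transporter gene *pept-1* by 3.64. *elt-2* was at 0.678 and 0.362 TPM against 11.1, 12.8 and 10.8 TPM. For all 8 markers the contrast differed between the cell types.

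Lysozyme and lectin genes rose as well, and the part of intestinal RNA in them was not tested. Of 14 lysozyme genes, 12 rose, 0 fell and the median was 2.62 (7 rose after median-of-ratios scaling), against 0 higher and 2 lower in muscle cells. The invertebrate-type lysozyme gene *ilys-5* was at 93.5 and 82.8 TPM against 1414, 1691 and 1296 TPM, and *lys-4* at 57.7 and 27.4 TPM against 584, 965 and 1148 TPM. *lys-1* rose by 2.15 and *lys-8* by 1.90, and neither passed after median-of-ratios scaling (1.21 and 0.96). Of 100 C-type lectin genes tested, 67 rose and 8 fell, with a median of 1.56 (48 and 11 after median-of-ratios scaling). *clec-47* was at 0.604 and 0.212 TPM in *daf-16(lf)* and at 84.1, 102 and 141 TPM in the double mutant, the largest rise of the family at 6.27. Of the 4 most abundant lectins, *clec-63* rose by 3.73 and *clec-50* by 3.11, and *clec-209* and *clec-1* were at -0.20 and 0.47 without passing. *clec-184* fell by 4.22, from 31.7 and 72.7 TPM to 1.17, 2.26 and 1.59 TPM, and was not called in muscle cells. Of 50 genes for caenopores, caenacins and antimicrobial neuropeptide-like proteins, 16 rose (32%) and 2 fell (4%), with a median of 0.70, below the shares and the median of all genes (12 and 7 after median-of-ratios scaling). The caenopores, small proteins that open pores in membranes, held the extremes. *spp-3* rose by 4.88, *spp-5* by 4.66 and *spp-14* by 4.49. *spp-15* went the other way, from 802 and 536 TPM to 27.8, 33.2 and 39.1 TPM, a difference of -4.27 ± 0.26 (SE; limma, adjusted p = 1.7e-10). *nlp-33*, an antimicrobial peptide gene of the epidermis, was at 0.45 and did not pass.

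The genes of the IIS pathway were mostly higher. *daf-2* itself was at 0.883 and 1.35 TPM in *daf-16(lf)* and at 12.5, 10.01 and 9.19 TPM in the double mutant, a log2 difference of 2.45 (limma, adjusted p = 8.4e-05). The *daf-16* transcripts still listed above 0 summed to 8.64 and 8.71 TPM in *daf-16(lf)* and to 50.7, 61.4 and 55.3 TPM in the double mutant, but the transcripts were not the same. R13H8.1g.1 was listed at 0 in *daf-16(lf)* and at 40.8, 33.5 and 25.03 TPM in the double mutant, R13H8.1e.1 was at 7.82 and 7.96 TPM against 8.18, 25.7 and 27.7 TPM, and R13H8.1d.1 was listed at 0 in the double mutant alone. Of 13 pathway genes, 12 rose and none fell, with a median of 1.15, close to the 0.86 of all genes, and 4 rose after median-of-ratios scaling. The kinase gene *sgk-1*, whose product acts beside the AKT kinases, stood apart, at 1.31 and 1.04 TPM against 23.2, 24.7 and 20.0 TPM, a difference of 3.44 ± 0.33 (SE; limma, adjusted p = 6.7e-08). In muscle cells it was at -0.12, and the difference between the cell types was 3.56 (adjusted p = 1.0e-05). *sgk-1* was the only pathway gene for which the contrast differed between the cell types. The 14-3-3 genes *par-5* and *ftt-2* rose by 1.36 and 0.95. *akt-1* (1.58), *akt-2* (1.03) and *age-1* (0.99) passed, but none of these 3 passed after median-of-ratios scaling, at 0.68, 0.27 and 0.22, nor did *par-5* (0.42) or *ftt-2* (0.01). The call of *age-1* was lost without any 1 of the 5 libraries (adjusted p from 0.066 to 0.21) and that of *akt-1* without each except double mutant replicate 1 (from 0.060 to 0.11). *akt-2* lost it without *daf-16(lf)* replicate 2 or double mutant replicate 2 (0.12 and 0.054), and *ftt-2* without *daf-16(lf)* replicate 2 (0.065). *pdk-1* did not pass, at 0.999 and 0.636 TPM against 1.75, 1.70 and 0.996 TPM. With *daf-16(lf)* replicate 2 left out, 5 of the 13 rose, and without replicate 1 of *daf-16(lf)* or replicate 2 of the double mutant, 7 did.

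The insulin-like peptides, the ligands of DAF-2, did not move together. Of 31 tested, 7 rose (22.6%) and 4 fell (12.9%) with a median of 0.42, and 3 rose and 5 fell after median-of-ratios scaling. After quantile normalization 3 rose, 6 fell and the median was -0.24. *ins-7*, an intestinal insulin known as a DAF-16-repressed agonist, was at 0.129 and 0.340 TPM against 8.84, 6.45 and 7.002 TPM, a rise of 2.77 that was 0.16 in muscle cells. *ins-17* rose from 2.09 and 2.05 TPM to 29.4, 24.7 and 32.4 TPM. *ins-33* had the largest fall, from 208 and 109 TPM to 7.92, 12.3 and 6.87 TPM (log2 difference -3.95 ± 0.79, SE; limma, adjusted p = 0.00031), and it also fell in muscle cells, by 3.03. *ins-30* and *ins-11* fell by 1.71 and 1.62, and neither passed with *daf-16(lf)* replicate 1 left out (adjusted p = 0.052 and 0.065). The abundant *ins-27*, *ins-35* and *ins-28* were at 0.20, 1.15 and 0.37 and did not pass. With replicate 1 of *daf-16(lf)* left out, 6 peptides rose and 1 fell.

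Of 22 other regulators of the response to low IIS, 16 rose and 1 fell, with a median of 1.26 (5 rose and 2 fell after median-of-ratios scaling). *pqm-1*, a zinc finger factor that acts opposite DAF-16 at many targets, was at 1.55 and 1.17 TPM in *daf-16(lf)* and at 62.0, 45.1 and 38.4 TPM in the double mutant, a difference of 4.37 ± 0.50 (SE; limma, adjusted p = 5.8e-07). In muscle cells it was at 0.16, and the difference between the cell types was 4.21 (adjusted p = 0.00011). The S6 kinase gene *rsks-1* rose by 2.82 and the Mediator subunit gene *mdt-15* by 2.02, both also in muscle cells. *hsb-1*, whose product binds HSF-1, rose by 1.71 and the Rag GTPase gene *raga-1* by 1.49, calls lost after median-of-ratios scaling. *skn-1* and *hlh-30*, the Nrf and TFEB factors of the worm, were at 1.11 and 1.25 and did not pass after quantile normalization or median-of-ratios scaling, and *skn-1* also lost its call without *daf-16(lf)* replicate 1 (adjusted p = 0.067). *xbp-1*, the factor of the unfolded protein response of the endoplasmic reticulum, was the regulator that fell, from 372 and 441 TPM to 146, 122.4 and 93.3 TPM, by 1.76 in all cells and 1.83 in muscle cells. *hsf-1* was at 25.2 and 27.3 TPM against 10.3, 10.5 and 9.21 TPM, without overlap, but did not pass (limma, adjusted p = 0.19). It passed in 5 of the 19 alternatives, among them quantile normalization (-2.29, adjusted p = 0.011) and the fit without the libraries labelled wild-type all cells (adjusted p = 0.016), with adjusted p from 0.0021 to 0.042 over the 5.

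Of 12 dauer hormone and TGF-beta genes, 4 rose (33.3%) and 1 fell (8.33%). After median-of-ratios scaling 2 rose and 1 fell and the sign of their median changed from 0.48 to -0.29. *daf-36*, whose enzyme starts the synthesis of dafachronic acids, rose from 1.21 and 1.16 TPM to 7.08, 12.7 and 7.71 TPM and was at -0.57 in muscle cells. The SMAD gene *daf-8* rose by 2.43, and another SMAD gene, *daf-14*, by 1.16, a call lost after median-of-ratios scaling and without *daf-16(lf)* replicate 2 (adjusted p = 0.099). Without that replicate, 2 of the 12 rose and 1 fell. *daf-12*, of the nuclear receptor for dafachronic acids, was at 0.13 without passing, and the gene of its corepressor, *din-1*, fell from 157 and 148 TPM to 34.0, 35.6 and 28.8 TPM. The Ski-family gene *daf-5* was at 0.17 and did not pass.

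Genes known as DAF-16-activated targets had shares of calls near those of all genes. Of 19, 8 rose (42.1%) and 2 fell (10.5%), with a median of 1.07 (4 rose and 3 fell after median-of-ratios scaling). *sod-3*, the mitochondrial superoxide dismutase gene widely used as a DAF-16 readout, was at 1.90 and 1.74 TPM against 1.52, 4.43 and 2.47 TPM, and the groups overlapped. *mtl-1*, a metallothionein gene, overlapped as well, at 6.70 and 2.33 TPM against 6.61, 8.88 and 15.5 TPM. The catalase genes *ctl-1* and *ctl-2*, whose near-identical sequences can share reads, rose by 3.54 and 3.93, and *lys-7* rose by 3.08. *mtl-2* rose by 2.39 (limma, adjusted p = 0.022), a call lost with *daf-16(lf)* replicate 2 left out (adjusted p = 0.18) and after median-of-ratios scaling. *icl-1*, the glyoxylate cycle enzyme gene, fell from 1179 and 1103 TPM to 245, 84.7 and 111 TPM. *pck-1*, a PEP carboxykinase gene, fell by 1.10 and did not pass without *daf-16(lf)* replicate 1 or without double mutant replicate 3 (adjusted p = 0.16 and 0.089). *gpd-2* was at 0.49 and did not pass.

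Of 8 repressed targets, 6 rose and none fell, with a median of 2.56, and the same counts held after quantile normalization and median-of-ratios scaling. *dao-4* rose from 1.18 and 3.60 TPM to 64.6, 89.2 and 80.9 TPM. *dod-22*, *dod-24* and *dod-17* rose by 2.42, 2.65 and 2.46, the last not passing with *daf-16(lf)* replicate 1 left out (adjusted p = 0.052). *dod-23* was at 0.139 and 0 TPM against 3.75, 3.88 and 33.8 TPM, so that double mutant replicate 3 held most of its mean. *dod-19* was at 102 and 84.6 TPM against 161, 185 and 203 TPM, without overlap, and did not pass. It passed where the 5 libraries were fitted alone (limma, adjusted p = 0.0059). In muscle cells 1 of the 8 rose and 3 fell, and the contrast differed between the cell types at 7.

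Inducible heat shock genes were high in *daf-16(lf)* and low in the double mutant. *hsp-16.48* (T27E4.3, chromosome V of WBcel235, 9088131 to 9088617, forward strand, 2 exons) encodes a small heat shock protein. It was at 2480 and 3214 TPM in *daf-16(lf)* and at 9.09, 77.5 and 19.3 TPM in the double mutant, a log2 difference of -6.81 ± 1.00 (SE; limma, adjusted p = 1.2e-05). *hsp-16.1* (T27E4.2) was at 571 and 724 TPM against 34.3, 38.7 and 13.5 TPM, and the gene T27E4.8, which the annotation also names *hsp-16.1*, was listed at 0 in every library. *hsp-16.41* fell by 5.87 and *hsp-16.2* by 3.52. In the whole list of 12 small heat shock genes, 4 fell and 3 rose, with a median of -0.38 that was -1.27 after median-of-ratios scaling, when 5 fell and 1 rose, and turned positive, to 1.04, where the muscle-high genes were left out, a setting that kept 6 of the 12. *hsp-12.2* rose by 2.19, a call lost after median-of-ratios scaling, and *hsp-17* by 2.47, and *hsp-25* was at 0.42 without passing.

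Of 18 HSP70, HSP90 and partner chaperone genes, 7 rose and 4 fell with a median of 0.65, and after median-of-ratios scaling 2 rose, 6 fell and the median was -0.25. The inducible HSP70 genes fell furthest. *F44E5.4* was at 304 and 635 TPM against 22.03, 6.53 and 2.79 TPM, and its near-identical neighbour *F44E5.5* at 335 and 605 TPM against 33.9, 10.5 and 3.95 TPM. *hsp-70* (C12C8.1) fell from 34.5 and 58.6 TPM to 1.75, 0.543 and 0.426 TPM, a difference of -4.66 ± 0.50 (SE; limma, adjusted p = 2.8e-07), deeper than in muscle cells by 2.13 on the log2 scale (adjusted p = 0.027). Among chaperones that cells also use without stress, some rose and others did not pass. The HSP90 gene *hsp-90* was at 488 and 580 TPM against 617, 508 and 440 TPM, and the groups overlapped. The cytosolic HSC70 gene *hsp-1* rose by 1.09, a call lost after median-of-ratios scaling and without either *daf-16(lf)* replicate or double mutant replicate 1 (adjusted p from 0.064 to 0.095). *hsp-3* and *hsp-4*, the BiP genes of the endoplasmic reticulum, rose by 1.91 and 1.69, and the mitochondrial HSP70 gene *hsp-6* by 1.60. *hsp-4* and *hsp-6* lost their calls after median-of-ratios scaling, and *hsp-4* also without *daf-16(lf)* replicate 1 (adjusted p = 0.15) and without double mutant replicate 1 or 2 (0.059 and 0.052). *enpl-1*, of the endoplasmic HSP90, was at -0.80 and did not pass, but fell in muscle cells by 2.32 (limma, adjusted p = 3.3e-05) and passed in all cells in 5 alternatives, at -1.74 after median-of-ratios scaling (adjusted p = 0.00016). With replicate 1 of *daf-16(lf)* left out, 3 of the 18 rose and 4 fell, and without replicate 2, 4 rose and 3 fell. Together the 5 *hsp-16* entries held 0.326% and 0.421% of TPM in *daf-16(lf)* all cells against 0.00368% to 0.0123% in the double mutant, and 0.336% to 0.743% of *daf-16(lf)* muscle cells against 0.0248% to 0.122% in double mutant muscle cells.

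**Figure D3:**
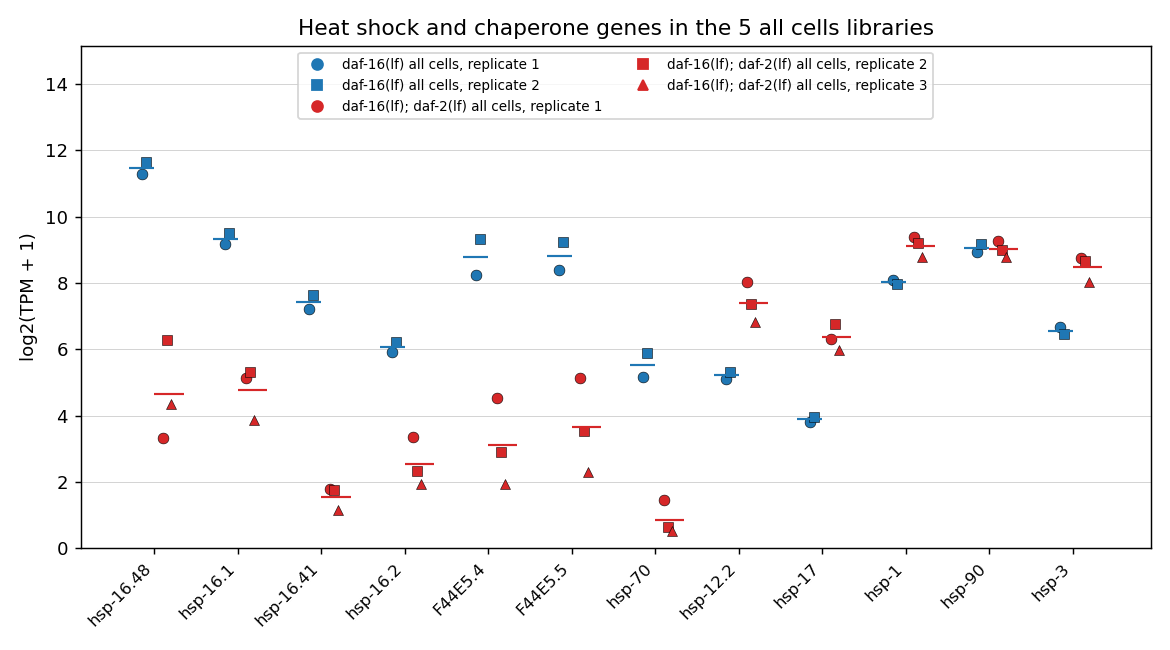
Points are log2(TPM + 1) of 12 heat shock and chaperone genes in each of the 5 all cells libraries, and bars are group means. The 4 *hsp-16* genes, *F44E5.4*, *F44E5.5* and *hsp-70* are high in both *daf-16(lf)* libraries without overlap, *hsp-90* overlaps between the groups, and *hsp-12.2*, *hsp-17*, *hsp-1* and *hsp-3* are higher in the double mutant on TPM as deposited.

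Antioxidant genes rose, and 3 families of detoxification genes had calls in both directions. Of 20 genes of oxidative stress defence, 16 rose and none fell, with a median of 1.84 (10 rose after median-of-ratios scaling). *msra-1*, a methionine sulfoxide reductase gene, was at 18.4 and 16.06 TPM against 407, 625 and 270 TPM, a difference of 4.50 ± 0.44 (SE; limma, adjusted p = 7.4e-08). The glutathione peroxidase gene *gpx-2* rose by 3.19, the copper/zinc superoxide dismutase gene *sod-1* by 2.10 and the peroxiredoxin gene *prdx-2* by 1.72, the last losing its call after median-of-ratios scaling. The mitochondrial peroxiredoxin gene *prdx-3* was at 0.06 and did not pass, and it was below 0 in 4 of the 5 other scalings. Of 40 glutathione S-transferase genes, 14 rose (35%) and 6 fell (15%) with a median of 0.48, and after median-of-ratios scaling 5 rose and 13 fell, while the median turned to -0.06 with quantile normalization. *gst-20* fell from 361 and 477 TPM to 30.8, 32.4 and 21.98 TPM and *gst-4*, a SKN-1 target used as an oxidative stress reporter, from 128 and 113 TPM to 8.08, 20.4 and 13.8 TPM. *gst-36* rose by 3.26, *gst-5* by 1.41 and *gst-1* by 1.24, the last 2 losing the call after median-of-ratios scaling. *gst-10* was at -0.77 and did not pass.

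Of 51 cytochrome P450 genes, 25 rose (49%) and 7 fell (13.7%), near the shares of all genes, and their median was the 0.86 of all genes (14 and 9 after median-of-ratios scaling). The *cyp-35* genes, intestinal enzymes of xenobiotic and fat metabolism, were at the top. *cyp-35A3* was at 1.10 and 0.455 TPM against 69.8, 127 and 74.4 TPM, *cyp-35A2* rose by 4.98 and *cyp-35C1* by 3.73. *cyp-33C8* fell by 3.05, and *cyp-13A2* was at -0.75 without passing, though it passed after median-of-ratios scaling (-1.61, adjusted p = 0.00014). Of 58 UDP-glucuronosyltransferase genes, 24 rose (41.4%) and 10 fell (17.2%), also near those of all genes, with a median of 0.69, and after median-of-ratios scaling 14 rose, 19 fell and the median was -0.03. In muscle cells 1 rose and 21 fell. *ugt-22* rose by 2.95 in all cells and fell by 2.09 in muscle cells, a difference of 5.05 between them (limma interaction, adjusted p = 4.4e-05). *ugt-23* rose by 3.18. *ugt-40* fell by 3.04, *ugt-8* by 2.75, *ugt-12* by 2.37 and *ugt-26* by 2.23, with *ugt-8* not past the test without *daf-16(lf)* replicate 1 (adjusted p = 0.083). The call of *ugt-26* was lost without either *daf-16(lf)* replicate (adjusted p = 0.082 and 0.14) and without double mutant replicate 1 (adjusted p = 0.11).

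Lipid genes rose in all cells. Of 21 fatty acid desaturase and elongase genes, 17 rose and none fell, with a median of 2.63 (13 rose after median-of-ratios scaling), against 5 and 1 in muscle cells. The 3 delta-9 desaturase genes, which make oleic acid and its shorter relative, rose together. *fat-7* was at 0.0549 and 0.192 TPM against 14.4, 15.96 and 11.8 TPM, *fat-6* at 32.9 and 22.01 TPM against 306, 292 and 238 TPM, and *fat-5* at 3.80 and 1.57 TPM against 64.03, 37.9 and 42.9 TPM. None of these 3 passed in muscle cells, and the contrast differed between the cell types by 3.36 to 4.18. The polyunsaturated branch rose too, *fat-2* by 3.73, *fat-1* by 3.18 and the elongase gene *elo-1* by 2.35. *elo-3*, another elongase gene, rose most, by 4.66, and also rose in muscle cells.

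Of 50 genes for lipases and fatty acid oxidation, 38 rose and none fell, with a median of 1.72 (25 rose and 3 fell after median-of-ratios scaling). The lysosomal lipase gene *lipl-5* was at 19.7 and 15.4 TPM against 252, 263 and 253 TPM, and *lipl-1* at 0.153 and 0.0573 TPM against 22.2, 12.03 and 23.3 TPM. The peroxisomal oxidation gene *dhs-28* rose by 3.81, and the enoyl-CoA hydratase genes *ech-7* and *ech-6* by 4.28 and 1.51, the latter losing its call after median-of-ratios scaling. *acdh-1*, an acyl-CoA dehydrogenase gene, was at 334 and 259 TPM against 593, 1094 and 769 TPM and did not pass (limma, adjusted p = 0.078).

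Carbohydrate genes had calls in both directions, and the sign of their median depended on the scaling. Of 24 genes of glycolysis, gluconeogenesis and the glyoxylate cycle, 9 rose (37.5%) and 6 fell (25%) with a median of 0.19, and after median-of-ratios scaling 1 rose, 11 fell and the median was -0.74. In muscle cells 17 rose and 2 fell, with a median of 1.15, and the contrast was more negative in all cells at 9 genes and more positive at 1. The aldolase gene *aldo-1* was at 891 and 717 TPM against 162, 141 and 116 TPM, a log2 difference of -2.52 that was 0.12 in muscle cells (limma interaction, adjusted p = 7.8e-06). The PEP carboxykinase gene *pck-2* fell by 2.42. Of the glyceraldehyde-3-phosphate dehydrogenase genes, whose close copies can share reads, *gpd-1* rose by 2.61 and *gpd-3* fell by 0.74, the latter not past the test without *daf-16(lf)* replicate 1 or double mutant replicate 3 (adjusted p = 0.15 and 0.094). With the muscle-high genes left out, 2 members rose and 2 fell. The list of trehalose and glycerol synthesis also holds genes of other use, such as the trehalase gene *tre-1* and the transporter gene *hmit-1.1*. Of its 14 genes, 7 rose (50%) and 2 fell (14.3%), near the shares of all genes. After median-of-ratios scaling 1 rose and 2 fell. The trehalase gene *tre-1* fell from 139 and 186 TPM to 17.5, 26.3 and 27.4 TPM in all cells and fell by 2.55 in muscle cells. *hmit-1.1*, a sugar transporter gene of the osmotic response, rose by 2.43, *gpdh-2* by 1.32 and *gpdh-3* by 1.02, and these 3 calls were lost after median-of-ratios scaling. The call of *hmit-1.1* was also lost without *daf-16(lf)* replicate 1 (adjusted p = 0.073) or replicate 2 (adjusted p = 0.066). That of *gpdh-3* was lost without any 1 of the 5 libraries (adjusted p from 0.055 to 0.14). *tre-3* was at 1.25 and did not pass.

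Yolk genes were nearly absent from *daf-16(lf)* all cells. The vitellogenins are made in the intestine of adult hermaphrodites and taken up by oocytes. All 6 rose, with a median of 3.88, and all 6 rose under each of the 6 scalings compared. *vit-2* (chromosome X, 5101042 to 5106169, forward strand, 5 exons) was at 0.0444 and 0.0396 TPM in *daf-16(lf)* and at 41.8, 46.2 and 615 TPM in the double mutant. *vit-6* was at 0.0907 and 0.0884 TPM against 40.2, 46.8 and 562 TPM. *vit-3*, *vit-4* and *vit-5*, whose near-identical sequences can share reads, were at 0 to 0.141 TPM in *daf-16(lf)*, with *vit-3* listed at 0 in both libraries. In the double mutant they were at 1.48 to 8.50 TPM in replicates 1 and 2 and at 35.6, 31.9 and 155 TPM in replicate 3. *vit-1* was at 0.149 and 0.102 TPM against 5.13, 4.80 and 26.6 TPM. Replicate 3 was the highest for each vitellogenin, yet replicates 1 and 2 also exceeded both *daf-16(lf)* libraries. With replicate 3 left out all 6 still rose, and the difference of *vit-2* was 5.43 in place of 6.69. In muscle cells none passed the test, and the contrast differed between the cell types for all 6. The *daf-2(lf)* all cells libraries, which carry *daf-16*, had 81.9, 0.460 and 11.7 TPM of *vit-2* in replicates 1 to 3.

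Replicate 3 of the double mutant also had higher values at the adult collagen gene *col-19* and at oocyte markers. Over all genes it was over 2 on the log2 scale above its group's median at 135 genes, against 14 for replicate 1 and 15 for replicate 2, and replicate 1 was as far below at 55 genes, against 10 and 11 for replicates 2 and 3. *col-19* was at 0.380 and 0.374 TPM in *daf-16(lf)* and at 43.9, 41.3 and 838 TPM in the double mutant, a difference of 6.41 that was 4.98 without replicate 3 (limma, adjusted p = 0.0012 and 0.0085). The oocyte and eggshell markers were at 3.28, 3.36 and 4.96 in replicates 1 to 3. Of these 9 markers, 6 rose, and 3 rose without replicate 3, without *daf-16(lf)* replicate 1 or after median-of-ratios scaling. *egg-1*, needed at fertilization, rose by 2.83, and *oma-1*, an oocyte RNA-binding protein gene, by 2.18. The eggshell gene *cbd-1* rose by 1.84, a call lost without replicate 3 (adjusted p = 0.066), without *daf-16(lf)* replicate 1 (adjusted p = 0.087) and after median-of-ratios scaling. The permeability barrier genes *perm-2* and *perm-4* were at 1.86 to 11.9 TPM in *daf-16(lf)* and at 13.6 to 97.7 TPM in the double mutant, and the yolk receptor gene *rme-2* was at a difference of -0.0044, and none of these 3 passed.

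Cuticle collagens had calls in both directions, with the share lower near that of all genes and the share higher below it. Of 155 tested, 53 rose (34.2%) and 20 fell (12.9%), against 45.2% and 11.3% of all genes. Their median was 0.22, and after median-of-ratios scaling 43 rose, 39 fell and the median was -0.52. *col-138* was at 2.18 and 4.23 TPM against 1100, 632 and 1000 TPM, the largest rise of the family at 7.77 ± 0.68 (SE; limma, adjusted p = 2.0e-08). *col-63* rose by 7.12, *col-88* by 6.91 and *col-60* by 6.76, and each rose more in all cells than in muscle cells. The 4 most abundant collagens, *col-117*, *col-3*, *col-125* and *col-10*, were lower in each double mutant library than in both *daf-16(lf)* libraries, at differences of -1.49 to -1.96, and did not pass. They passed after median-of-ratios scaling, at -2.43 to -2.90 (limma, adjusted p from 0.0077 to 0.019), and with array weights. *col-44* fell by 6.14, *col-36* by 6.07 and *col-40* by 5.37. These 3 differed widely between the *daf-16(lf)* replicates, with *col-36* at 759 and 41.1 TPM, *col-40* at 366 and 62.9 TPM and *col-44* at 201 and 55.5 TPM. Without replicate 1 of *daf-16(lf)*, *col-36* was at -3.99 (adjusted p = 0.22) and *col-40* at -4.11 (adjusted p = 0.19). *col-40* also lost its call without double mutant replicate 1 (adjusted p = 0.070) and without replicate 3 (adjusted p = 0.062).

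**Figure D4:**
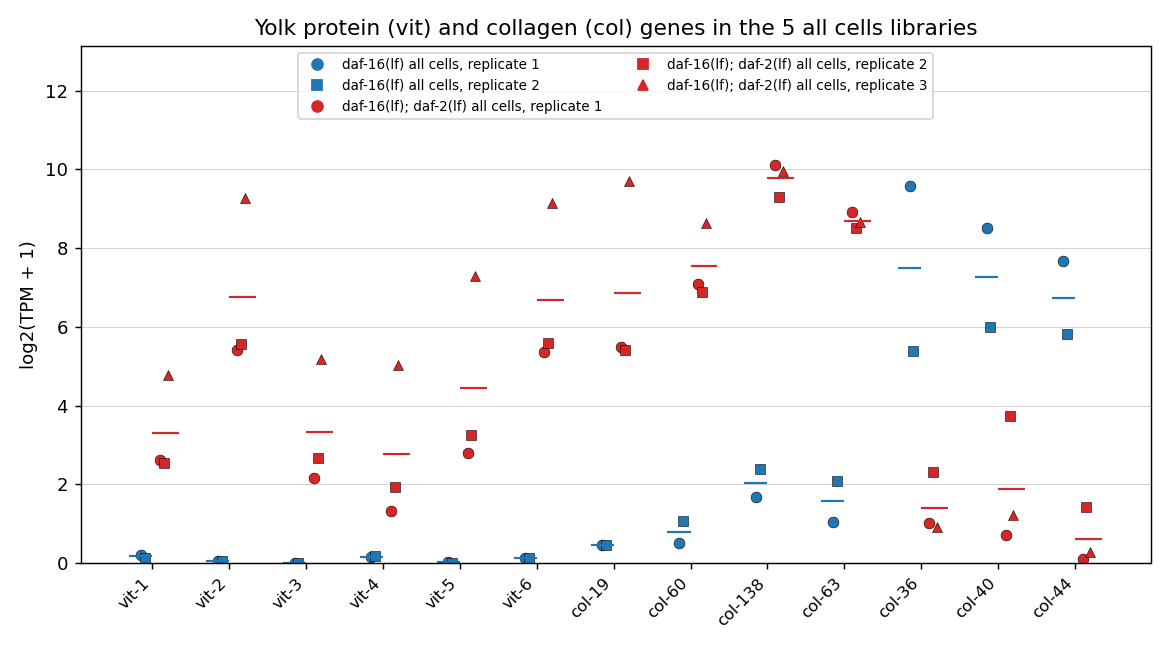
Points are log2(TPM + 1) of the 6 vitellogenin genes and 7 collagen genes in each of the 5 all cells libraries, and bars are group means. Vitellogenins and *col-19* are near 0 in *daf-16(lf)* and highest in double mutant replicate 3, while *col-36*, *col-40* and *col-44* are high in *daf-16(lf)*, with replicate 1 above replicate 2.

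Of 6 hypodermis markers, 4 rose and none fell, with a median of 2.61, and 4 rose after median-of-ratios scaling. The collagen genes *rol-6* and *dpy-7* were at 29.0 and 12.3 TPM against 360, 300 and 216 TPM, and at 13.04 and 6.48 TPM against 167, 114 and 61.8 TPM. The more abundant collagen genes *dpy-13* and *sqt-3* were at -0.94 and -0.64 and did not pass. Of 19 molting genes, 11 rose and 1 fell with a median of 1.66 (6 and 1 after median-of-ratios scaling), and none was called in muscle cells. *mlt-8* rose by 3.55, and *noah-1* and *noah-2*, of the apical extracellular matrix, by 2.81 and 2.70. *mlt-10* was at 1.48 and did not pass. The astacin protease gene *nas-6* fell by 1.96, a call lost without either *daf-16(lf)* replicate (adjusted p = 0.059 and 0.12) and without double mutant replicate 3 (adjusted p = 0.057).

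Most germ line markers rose in both cell types. Of 8 markers, 7 rose and 1 fell in all cells and likewise in muscle cells, with medians of 1.72 and 1.89, and 2 rose and 1 fell in all cells after median-of-ratios scaling. *gld-1*, a translational repressor gene of meiotic germ cells, was at 2.48 and 3.39 TPM against 63.8, 65.3 and 88.2 TPM, a difference of 4.22 ± 0.48 (SE; limma, adjusted p = 5.3e-07). The P granule gene *pgl-1* and the meiotic axis gene *him-3* rose by 1.63 and 1.82, calls lost after median-of-ratios scaling, and without *daf-16(lf)* replicate 1, when 3 markers rose and 1 fell, neither passed (adjusted p = 0.13 and 0.059). *glh-1*, a germ granule helicase gene, was the one that fell, from 210 and 333 TPM to 96.2, 90.6 and 64.1 TPM. Of 30 major sperm protein genes, which are near-identical copies that can share reads, 10 rose (33.3%) and none fell. That share is below the 45.2% of all genes, while the median was 1.97 (4 rose after median-of-ratios scaling). *msp-74* rose from 1.09 and 3.35 TPM to 80.6, 58.0 and 90.8 TPM. The most abundant of them, *msp-53*, *msp-51*, *msp-59* and *msp-57*, were at 2.20, 1.94, 1.13 and 1.43 without passing, and the *daf-16(lf)* replicates differed, as at *msp-53* with 37.2 and 169 TPM. Without *daf-16(lf)* replicate 1, 1 of the 30 rose, and without double mutant replicate 3, 6 did. Of 8 sperm markers, *spe-11* alone passed, at 1.97, and lost the call without *daf-16(lf)* replicate 1 and without each double mutant replicate (adjusted p from 0.054 to 0.31). The sperm phosphatase genes *gsp-3* and *gsp-4* were at -0.14 and 0.34 and the spermatogenesis factor gene *spe-44* at -1.67, none past the test. The median of the sperm markers was 0.35, and -0.39 after median-of-ratios scaling.

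Somatic gonad and coelomocyte markers did not pass on TPM as deposited. *ceh-18*, *inx-8*, *inx-9* and *lim-7* were at 0.77, 0.80, 0.88 and -0.47, with a median of 0.78 that was -0.03 after median-of-ratios scaling, and the coelomocyte genes *cup-4*, *lgc-26* and *unc-122* at -1.12, -0.86 and -0.25. After quantile normalization these 3 and *lim-7* passed as lower, at -1.69, -1.40, -0.65 and -1.19 (limma, adjusted p from 0.0055 to 0.029). *lim-7* and *lgc-26* also passed as lower after median-of-ratios scaling, at -1.08 and -1.35 (limma, adjusted p = 0.041 and 0.024). Of the 3 glia markers, *vap-1*, a secreted protein gene of the amphid sheath glia, fell from 211 and 359 TPM to 17.1, 12.198 and 11.2 TPM, and *fig-1* fell by 1.297, a call lost without either *daf-16(lf)* replicate (adjusted p = 0.072 and 0.11) or double mutant replicate 3 (adjusted p = 0.068). *ptr-10* was at 0.89 and did not pass.

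Neuronal genes rose. Of 12 neuron markers, 9 rose and none fell, with a median of 1.54 (6 rose after median-of-ratios scaling). The syntaxin gene *unc-64* was at 2.31 and 2.93 TPM against 30.8, 30.0 and 23.5 TPM, and the synaptobrevin gene *snb-1* at 31.2 and 22.7 TPM against 102, 101 and 103 TPM. The genes of the neuropeptide processing enzymes *egl-3* and *egl-21* rose by 2.77 and 1.48, the latter losing its call after median-of-ratios scaling, without *daf-16(lf)* replicate 2 (adjusted p = 0.12) and without double mutant replicate 1 (0.0501). Of 100 neuropeptide genes of the flp and nlp families, 61 rose and 1 fell, with a median of 1.90 (41 and 5 after median-of-ratios scaling). *nlp-36* rose from 19.8 and 17.02 TPM to 358, 565 and 582 TPM. *nlp-23* fell by 3.65, and the abundant *nlp-27* and *nlp-24* were at -0.31 and 0.90 without passing.

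Genes of the cytosolic ribosome rose in both cell types. Of 84 ribosomal protein genes, 77 rose and 2 fell in all cells and 76 rose and 3 fell in muscle cells, with medians of 2.10 and 2.00, and the contrast was more positive in all cells at 2 of them. After median-of-ratios scaling 46 rose and 3 fell, and with the 100 most abundant genes left out, which include many of them, 27 of the remaining members rose and none fell. Together they held 10.3% and 9.68% of TPM in *daf-16(lf)* all cells and 38.9% to 45.3% in the double mutant (exact permutation test, two-sided, p = 0.1, the smallest possible), against 9.83% to 18.7% and 34.6% to 46.3% in the muscle cells of the same strains. *rpl-39*, of 236 bases, was at 1321 and 1242 TPM against 40781, 42999 and 38412 TPM, and *rpl-29*, *rps-28* and *rpl-41.2* rose by 4.56, 4.46 and 3.68. *rpl-41.2* rose less in muscle cells, by 2.34 (limma interaction, adjusted p = 0.040). The 2 that fell were abundant in *daf-16(lf)*. *rpl-12* was at 16191 and 17518 TPM against 3250, 2647 and 2530 TPM, by -2.59 in all cells and -2.69 in muscle cells, and *rpl-7A* at 7024 and 7883 TPM against 1871, 1452 and 1219 TPM. A transcript of *rpl-12* of 327 bases (JC8.3c.7) was at 1793 and 2095 TPM in *daf-16(lf)* and listed at 0 in the double mutant.

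Of 50 genes of the respiratory chain and ATP synthase, 34 rose and 2 fell in all cells, with a median of 1.04, and 40 rose and 2 fell in muscle cells, with a median of 1.71. After median-of-ratios scaling 4 rose and 8 fell in all cells. *cox-16* rose by 4.12 and *cox-14* by 3.59, and *ucr-11* and *cox-7C* by 1.62 and 1.41, calls that the last 2 lost after median-of-ratios scaling. The cytochrome c gene *cyc-2.1* was at -0.24 and did not pass. *atp-1*, the alpha subunit gene of the ATP synthase, fell from 8913 and 9117 TPM to 1080, 924 and 838 TPM, and *nuo-3*, of complex I, from 1821 and 1668 TPM to 191, 203 and 196 TPM, and both fell in muscle cells too. Of the 12 genes of mitochondrial DNA, 9 fell and none rose, and together they held 4.45% and 4.19% of TPM in *daf-16(lf)* all cells against 0.121%, 0.303% and 0.699% in double mutant replicates 1 to 3. *ND6* had the largest fall among them, from 20041 and 19499 TPM to 62.0, 29.4 and 13.3 TPM. In muscle cells 5 of the 12 fell.

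Protein turnover genes rose. Of 33 proteasome genes, 30 rose and none fell, with a median of 1.66, and 31 rose in muscle cells, with a median of 1.35. The contrast differed between the cell types at none of them (18.3% of all genes did), and after median-of-ratios scaling 11 rose and 1 fell in all cells. *pas-5*, *pas-3*, *pas-2* and *pas-7*, of the alpha ring, rose by 1.80, 2.05, 1.76 and 2.19, and *pbs-7*, of the beta ring, by 1.08, a call lost after median-of-ratios scaling. Of 46 genes of autophagy and the lysosome, 38 rose and none fell, with a median of 2.08 (24 rose after median-of-ratios scaling), and 22 rose in muscle cells. The subunit genes of the vacuolar proton pump led. *vha-3* was at 10.5 and 7.54 TPM against 250, 260 and 223 TPM. The intestinal subunit gene *vha-6* was at 7.81 and 5.99 TPM against 139, 167 and 183 TPM, and was at -0.45 in muscle cells. In *daf-16(lf)* all of its TPM lay on one transcript (VW02B12L.1.2) and in the double mutant on another (VW02B12L.1.1), which are 2697 and 2709 bases long. *vha-9*, *vha-10* and *vha-2* rose by 3.44, 3.28 and 2.67, and the cathepsin L gene *cpl-1* by 2.54. *lgg-1*, the ATG8 gene of autophagosomes, rose by 2.02 in all cells and by 3.13 in muscle cells, and its call in all cells was lost after median-of-ratios scaling.

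**Figure D5:**
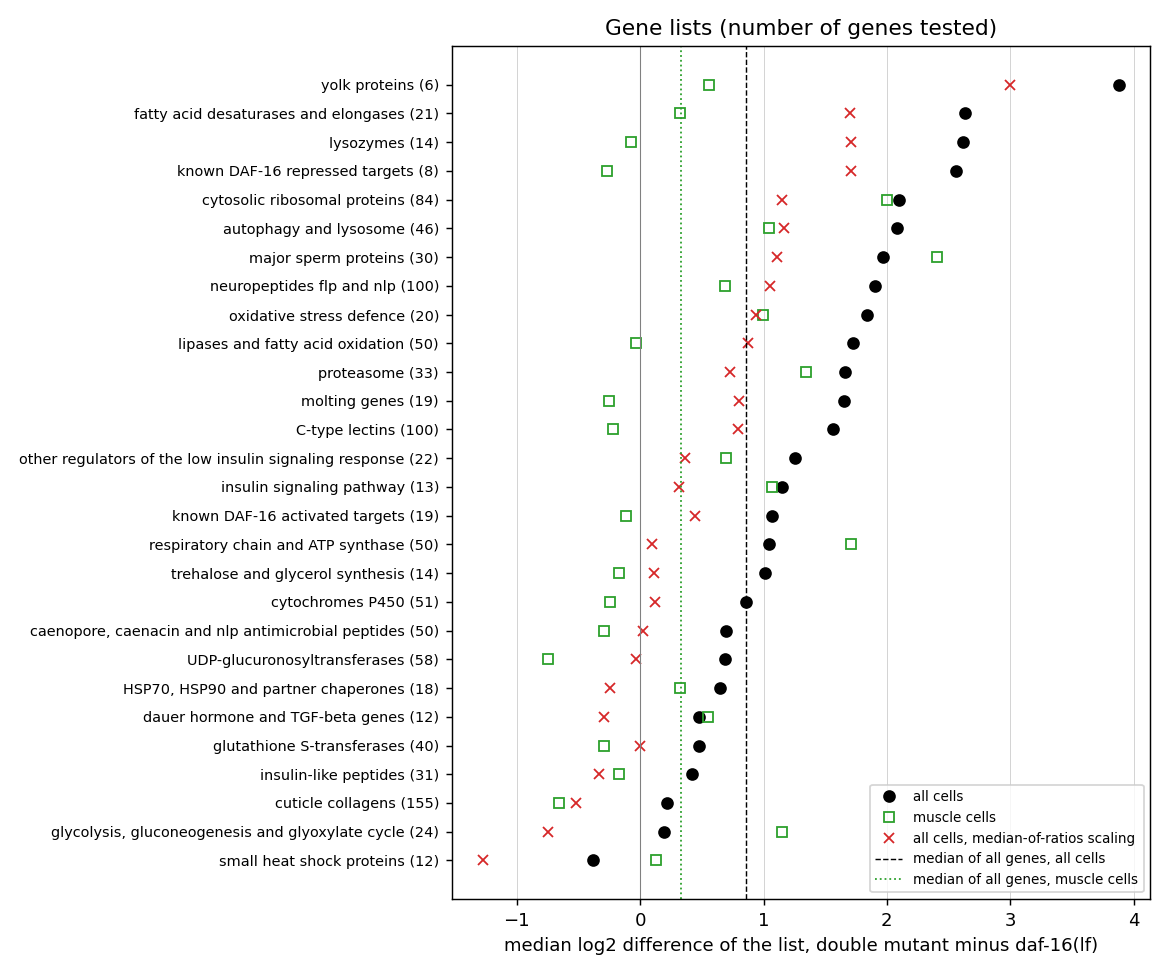
Each row is a gene list, with the median log2 difference of its members in all cells (filled circles), in all cells after median-of-ratios scaling (crosses) and in muscle cells (open squares), and lines mark the medians of all genes. In all cells, 19 of the 28 lists lie above the 0.86 of all genes, led by yolk proteins at 3.88, and the medians of small heat shock proteins (-0.38) and of glycolysis (0.19) are the lowest.

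Many of the largest differences lay in genes with very short transcripts or in transcripts of mitochondrial DNA. Among the 15 genes of largest rise, those past the test without overlap and at 10 TPM or more, 10 had a length under 300 bases and 6 were listed at 0 in both *daf-16(lf)* libraries, and all 15 rose in muscle cells too. Of all 14714 genes tested, 502 were under 300 bases and 197 were listed at 0 in both *daf-16(lf)* libraries. Of the 6656 higher genes, 2577 were also higher in muscle cells. *nola-3* (C25A1.6, chromosome I, 10179042 to 10179236, forward strand, 1 exon), which encodes a small subunit of box H/ACA ribonucleoproteins, was listed at 0 in *daf-16(lf)* and at 1167, 1400 and 1485 TPM in the double mutant. It overlaps the gene C25A1.16. *T04C10.11*, *T09F3.7*, *R12B2.13*, *C34E10.12* and *C56G2.22* were also listed at 0 in *daf-16(lf)* and were at 117 to 583 TPM in the double mutant. The others were *F59E12.16*, *Y68A4A.13*, *F53A9.8*, *C08E3.1*, *trm-2A* and *mct-2*, with differences from 6.89 to 7.94, and the collagen genes *col-138*, *col-63* and *col-88*. Over the whole series, 6 genes were listed at 0 in each of the 12 *daf-2(+)* libraries while at 10 TPM or more in each of the 12 *daf-2(lf)* libraries, and 5 of them were under 300 bases. In the reverse, *F46A8.7*, of 111 bases, was listed at 0 in each *daf-2(lf)* library and at 10 TPM or more in each *daf-2(+)* library. The part of the library kit in this split cannot be told apart from that of the genotype.

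Among the 15 genes of largest fall, 3 were of mitochondrial DNA (*ND6*, *MTCE.4* and *MTCE.16*), 4 were under 300 bases, and 6 were listed at 0 in all 3 double mutant libraries. Of all 14714 genes tested, 12 were of mitochondrial DNA, 502 were under 300 bases and 56 were listed at 0 in the double mutant. *nspc-15*, of a nematode-specific peptide family, was at 2047 and 2624 TPM in *daf-16(lf)* and listed at 0 in the double mutant. *F56A4.3*, *D1005.t1*, *F46A8.7*, *ZK380.t2* and *W03G11.3* were likewise listed at 0 in the double mutant, from 48.4 to 366 TPM in *daf-16(lf)*. Longer genes were present as well. *D1086.12* fell from 1637 and 1407 TPM to 8.43, 13.6 and 10.8 TPM, *T21B6.3* from 2205 and 2601 TPM to 27.8, 19.4 and 15.6 TPM, and *T04A6.1* from 940 and 719 TPM to 4.52, 12.4 and 18.9 TPM. These 3 fell more in all cells than in muscle cells. *EGAP4.1* fell by 6.19, and *hsp-16.48* and *col-44* complete the list.

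The contrast differed with length across the table, with the highest medians in the shortest and the longest genes. The part of length in any single gene was not tested. The 502 genes tested with a length under 300 bases had a median difference of 1.47, and 250 rose (49.8%) and 28 fell (5.58%). Of all genes, 45.2% rose and 11.3% fell. The share that rose was 50.6% at 2000 to under 4000 bases and larger still at 4000 bases and over, so the share of rises did not set short genes apart. Genes of 600 to under 1000 bases had the lowest median, 0.70, and those of 4000 bases and over a median of 1.11. All genes under 300 bases together held 2.96% and 3.14% of TPM in *daf-16(lf)* all cells and 16.9% to 18.9% in the double mutant, against 2.11% to 4.31% and 13.03% to 16.6% in the muscle cells of the 2 strains. Leaving out such genes with those of mitochondrial DNA and those not annotated as protein-coding, then rescaling, a setting chosen after seeing the data, left 8600 genes called, 7164 higher and 1436 lower. The assignment of reads to transcripts differed as well. Of 3870 genes with a steady most abundant transcript within each group, that transcript differed between the groups at 1581 (40.9%).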

How the data were processed

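mRNA-seq of sorted *C. elegans* cells was examined in 24 libraries, of which 5 form the contrast described. The authors quantified reads with Salmon 1.4.0 against WBcel235 transcripts and deposited TPM for 35749 transcripts. The authors tested estimated counts with DESeq2, which were not used here, so no count test was run. TPM was summed to 21979 genes by the leading sequence name, and 21894 were named by the Ensembl 115 annotation. limma 3.58.1 (R 4.3.3) was fitted to log2(TPM + 1) of 14714 genes, with 1 mean for each of 8 groups, all 24 libraries and an abundance trend. Single levels were compared by exact permutation (scipy 1.17.1). The fit was also run on simulated data with independent normal noise and a set of changed genes. Those data held no shift of all genes, so the run does not bear on the shift of the median seen here. Named genes were the 15 of largest rise and 15 of largest fall past the test, without overlap and at a mean of 10 TPM or more, and members of 39 gene lists, of which the 4 most abundant and those of largest difference were described. The contrast, lists and tests were chosen with earlier results of these data known. Sequences were not printed, because no sequence table was used here. Alternatives were a pseudocount of 0.1, other filters (none, or 4 TPM), scalings, samples and variance settings, a replicate block and each library left out. No sources used here state strand or kit per library.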

Additional observations from a re-analysis of the deposited data

Results flagged for a closer look

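The contrast of double mutant and *daf-16(lf)* differed between all cells and muscle cells at 94 of the 253 genes named (limma test of the difference itself, adjusted p under 0.05), against 18.3% of all genes tested. Many of the 253 were chosen by their difference in all cells, so nothing is read from that count. Values are the log2 difference in all cells minus that in muscle cells. For cuticle collagens, they were *col-138* (3.35), *col-63* (3.56), *col-88* (4.43), *col-60* (3.96) and *rol-6* (3.28). For genes of no list, they were *nspc-15* (-5.61), *D1086.12* (-3.37), *T21B6.3* (-4.17), *T04A6.1* (-3.78), *ZK380.t2* (-1.65) and *act-4* (-2.06). For the insulin signaling pathway, it was *sgk-1* (3.56). For other regulators of the low insulin signaling response, it was *pqm-1* (4.21). For insulin-like peptides, they were *ins-7* (2.61) and *ins-27* (-1.59). For dauer hormone and TGF-beta genes, it was *daf-36* (2.74). For known DAF-16 activated targets, they were *mtl-2* (3.62), *ctl-1* (3.88), *ctl-2* (3.77), *lys-7* (3.60), *pck-1* (-2.35) and *lys-8* (2.88). For known DAF-16 repressed targets, they were *dod-22* (2.50), *dod-24* (3.11), *dao-4* (3.13), *dod-19* (4.74) and *dod-17* (3.99). For HSP70, HSP90 and partner chaperones, it was *hsp-70* (-2.13). For oxidative stress defence, it was *msra-1* (3.22). For glutathione S-transferases, it was *gst-36* (3.10). For cytochromes P450, they were *cyp-35A3* (5.44), *cyp-35A2* (5.10), *cyp-35C1* (4.56) and *cyp-13A2* (1.85). For UDP-glucuronosyltransferases, they were *ugt-22* (5.05), *ugt-23* (3.89) and *ugt-40* (-2.75). For lysozymes, they were *lys-4* (4.11), *ilys-5* (3.81) and *lys-1* (3.93). For C-type lectins, they were *clec-47* (4.30), *clec-63* (4.30), *clec-50* (4.78), *clec-209* (4.62) and *clec-184* (-4.02). For caenopore, caenacin and nlp antimicrobial peptides, they were *spp-5* (3.95), *spp-3* (3.60), *spp-15* (-2.65), *spp-14* (3.72) and *nlp-24* (3.27). For fatty acid desaturases and elongases, they were *fat-5* (4.18), *fat-6* (3.75), *fat-7* (3.36), *fat-2* (2.51) and *elo-1* (2.20). For lipases and fatty acid oxidation, they were *lipl-1* (3.65), *lipl-5* (5.01), *dhs-28* (4.12), *acdh-1* (2.89) and *ech-7* (4.44). For glycolysis, gluconeogenesis and glyoxylate cycle, they were *aldo-1* (-2.64) and *gpd-3* (-1.59). For yolk proteins, they were *vit-1* (2.93), *vit-2* (4.90), *vit-3* (3.05), *vit-4* (2.40), *vit-5* (3.58) and *vit-6* (4.89). For the respiratory chain and ATP synthase, they were *nuo-3* (-1.07) and *cyc-2.1* (-0.82). For autophagy and lysosome, they were *vha-6* (4.83), *vha-2* (2.14), *vha-10* (2.43), *vha-9* (1.84) and *vha-3* (3.42). For neuropeptides flp and nlp, it was *nlp-36* (3.71). For body wall muscle markers, they were *unc-54* (-2.56), *unc-15* (-2.59), *lev-11* (-2.25), *mlc-3* (-2.51), *unc-60* (-2.10) and *unc-27* (-1.60). For intestine markers, they were *act-5* (4.97), *asp-1* (3.98), *ifb-2* (4.61), *elt-2* (3.09) and *pept-1* (4.80). For glia markers, it was *vap-1* (-3.66). For small heat shock proteins, they were *hsp-25* (-1.36) and *hsp-17* (2.70). For trehalose and glycerol synthesis, it was *hmit-1.1* (3.82). For molting genes, they were *mlt-8* (3.27) and *noah-1* (3.02). For cytosolic ribosomal proteins, it was *rpl-41.2* (1.34). The parts of muscle and intestinal RNA in these differences were not tested. Groups of 2 and 3 libraries are too small for a test of a single library's distance from the others.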

How the results depend on the processing

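The all cells contrast called between 5150 and 10665 genes over the alternatives. Without the libraries labelled wild-type all cells it called 9209 genes, in place of 8318. Fitted to the 5 libraries alone, it called 9582. Rescaling without muscle-high genes, a setting chosen after seeing the data, gave 5150 genes in all cells and 1630 for the difference between the cell types. A pseudocount of 0.1 gave 1457 for that difference, and array weights 5293, with 10227 in muscle cells. With each library of the compared groups left out in turn, the counts were 6176 to 7935 in all cells, 3501 to 6270 in muscle cells and 1802 to 2849 for the difference. Where a *daf-16(lf)* all cells library was left out, the lone one is assumed to vary like the other groups. Of 4735 values of the 253 named genes under 19 alternatives, 4418 kept their sign and side of the test, 155 lost the call, 94 gained it and 68 changed sign. Of 741 counts of list members, 665 were within 1.5 times the reported count. Replicates 1 and 2 share numbers but nothing in the labels says what they share, and with 2 pairs the deviations correlated at 0.189 and -0.228. With a replicate block the counts were 8451, 5303 and 2883. The sign of single genes changed, in log2 difference, at genes that had not passed the test, and of the changed values *prdx-3* without muscle-high genes alone passed it (limma, adjusted p = 0.029). With quantile normalization these were *pdk-1* (-0.20), *sod-3* (-0.34), *ins-27* (-0.0599), *ins-28* (-0.27), *daf-5* (-0.79), *daf-12* (-0.83), *prdx-3* (-0.20), *gsp-4* (-0.31), *ceh-18* (-0.0893) and *inx-8* (-0.0462). With median-of-ratios scaling they were *pdk-1* (-0.0409), *sod-3* (-0.25), *unc-60* (-0.47), *ins-27* (-0.74), *ins-28* (-0.52), *daf-5* (-0.64), *daf-12* (-0.68), *gpd-2* (-0.45), *hsp-25* (-0.52), *prdx-3* (-0.88), *clec-1* (-0.46), *nlp-33* (-0.49), *nlp-24* (-0.038), *gsp-4* (-0.54), *ceh-18* (-0.0603) and *inx-8* (-4.7e-05). Without muscle-high genes they were *sod-3* (-0.14), *ins-28* (-0.32), *daf-12* (-0.52), *gpd-2* (-0.22), *prdx-3* (-0.65), *clec-1* (-0.24), *nlp-33* (-0.26) and *gsp-4* (-0.34). Without short, mitochondrial and non-coding genes they were *hsp-90* (0.17), *unc-27* (0.0972), *clec-209* (0.00118), *myo-1* (0.14), *myo-2* (0.13), *rme-2* (0.19) and *gsp-3* (0.0586). Without the 100 most abundant genes they were *ins-27* (-0.0578), *daf-5* (-0.0639), *daf-12* (-0.11) and *prdx-3* (-0.20), and with the replicate block *daf-12* (-0.0341). With 1 library left out, the sign changed within the range at *hsp-90* (-0.17 to 0.082), *unc-27* (-0.33 to 0.11), *ins-27* (-0.0455 to 0.49), *daf-12* (-0.0526 to 0.27), *prdx-3* (-0.0439 to 0.16), *clec-209* (-0.42 to 0.0574), *myo-1* (-0.70 to 0.58), *myo-2* (-0.58 to 0.42), *rme-2* (-0.52 to 0.51), *gsp-3* (-0.97 to 0.68), *gsp-4* (-0.24 to 0.91) and *unc-122* (-0.59 to 0.0944). Other settings gained calls too. Where the 5 libraries were fitted alone, 16 named genes gained the call (limma, adjusted p under 0.05). Among them were *hsf-1*, *dod-19*, *acdh-1*, *tre-3*, *cyp-13A2*, *gst-10*, *mlt-10* and *dpy-13*. The others were *unc-22*, *tnt-4*, *col-117*, *col-3*, *col-125*, *col-10*, *spe-44* and *ceh-18*. In that fit *vit-4* and *pck-1* lost theirs (limma, adjusted p = 0.078 and 0.052). Gains of 2 scalings with values not given above follow. After median-of-ratios scaling they were *gst-10* (-1.70), *cyc-2.1* (-1.19) and *spe-44* (-2.45). After quantile normalization they were *enpl-1* (-1.02), *cyp-13A2* (-1.55), *acdh-1* (1.46), *cyc-2.1* (-0.63) and *spe-44* (-2.74). The cause of these changes was not tested. TPM carries no read number, so the limit set by depth is unknown.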
